A study of Mus musculus with 6 samples.

Results

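Fzd7, a receptor for Wnt proteins, and 9 other genes of the Wnt pathway were followed in RNA from quadriceps muscle after injury of the anterior cruciate ligament, a ligament inside the knee joint, and from quadriceps without that injury. The 10 genes, of 20015 in the deposited table, were taken by name: Fzd7, Fzd4, Lrp5, Lrp6, Ctnnb1, Axin2, Sfrp1, Sfrp2, Sfrp4 and Rspo3. Fzd7 was chosen by its lower value in the injured libraries of this same data set, and the list around it was drawn up with those values known. The injured against non-injured values of the 10 genes are therefore given as a description. There were 3 injured and 3 non-injured libraries, each group with the letters A, B and C. The organism label is mouse and every row of the table is a mouse gene model, whereas the series text speaks of human limbs before reconstruction surgery. The title of the deposited counts names myonuclear RNA (RNA of muscle fibre nuclei), while the extraction protocol mentions no isolation of nuclei. The labels name only the tissue and the injury: strain, age, sex, the way the ligament was torn, the time since injury and whether both kinds of muscle came from the same animals are not stated there. Libraries held 6.45 M to 8.75 M counts, and the titin mRNA Ttn, which marks muscle fibres, lay between 131614 and 145805 CPM (counts scaled to a common library size) in all 6.

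Wnt proteins are secreted ligands. They bind Frizzled receptors (the Fzd genes) together with the co-receptors LRP5 and LRP6, which stops a cytoplasmic complex built on axin from destroying beta-catenin (Ctnnb1), and beta-catenin then switches on target genes such as Axin2 through TCF/LEF factors. Secreted Frizzled-related proteins (the Sfrp genes) bind Wnt ligands and modulate the signal, and R-spondins such as Rspo3 strengthen it by sparing the receptors from removal. In skeletal muscle, Fzd7 is known as the receptor through which Wnt7a acts on satellite cells, the stem cells of muscle, by way of the planar polarity protein Vangl2, and on muscle fibres, where it promotes growth through Akt and mTOR.

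Fzd7 was the member whose level separated the groups most clearly. The gene has 1 exon and lies on chromosome 1, from 59482424 to 59486955 on the plus strand (mm10). Its level was 66.6, 61.6 and 66.6 CPM in injured A, B and C, and 101, 108 and 122 CPM in non-injured A, B and C. All 3 injured libraries lay below all 3 non-injured ones, and the injured libraries lay close together. The mean level was 64.9 ± 2.87 CPM in injured and 110 ± 10.7 CPM in non-injured muscle (SD, n = 3 each), a log2 fold change of -0.76 ± 0.14 (SE), or a change of -41.2% on the CPM scale. Within the letters, the log2 ratio of injured to non-injured was -0.60 for A, -0.81 for B and -0.87 for C. The adjusted p of 0.027 (edgeR quasi-likelihood test over 16095 genes, Benjamini-Hochberg) is the value by which Fzd7 came to notice and is no support for its own difference. Leaving out either library of letter B (0.0933 for the injured one, 0.0889 for the other) or of letter C (0.0899 and 0.18) put the adjusted p above 0.05, while the log2 fold change stayed between -0.85 and -0.70 over all 14 alternatives. Those fits without a library of letter B or C called only 0 to 2 of all genes lower.

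The promoters of Fzd7 and of Axin2 are printed because the first is the gene that parted the groups and the second is the most used target gene of beta-catenin. Whether Fzd7 acts on Axin2 in these muscles was not tested. Both come from RefSeq on GRCm38.p6 (the assembly of mm10) and run from 250 bases before to 50 after the RefSeq start site, on the plus strand. The Fzd7 window is chr1:59481897-59482196, and its RefSeq start site lies 277 bases before the start of the GENCODE model. The Axin2 window is chr11:108920099-108920398, with the same start in both annotations. Capitals mark matches to the core recognised by TCF/LEF factors, searched on both strands as CTTTGAT and, in another common spelling, as CTTTGTT. The spellings searched differ in 1 base, so no match is counted under both. Other spellings, and bases outside the windows, were not searched.
Fzd7: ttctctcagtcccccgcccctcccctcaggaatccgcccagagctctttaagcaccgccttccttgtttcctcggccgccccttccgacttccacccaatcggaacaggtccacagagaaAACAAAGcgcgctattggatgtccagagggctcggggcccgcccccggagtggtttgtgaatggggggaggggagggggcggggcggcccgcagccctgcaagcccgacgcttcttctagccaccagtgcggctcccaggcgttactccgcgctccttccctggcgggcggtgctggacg
Axin2: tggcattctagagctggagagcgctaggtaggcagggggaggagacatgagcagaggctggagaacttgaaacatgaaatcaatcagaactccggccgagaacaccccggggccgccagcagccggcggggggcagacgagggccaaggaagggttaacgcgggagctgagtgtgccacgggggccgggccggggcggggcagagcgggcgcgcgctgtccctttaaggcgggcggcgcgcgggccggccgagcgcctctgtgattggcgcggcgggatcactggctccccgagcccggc
The Fzd7 window held 1 match, AACAAAG, which on the minus strand reads CTTTGTT, beginning 130 bases before the RefSeq start site, and the Axin2 window held 0. Of 32851 promoter windows of that length in the table, 9.33% held at least 1 match. Among the 10 genes, 5 had a window in the table, and the others with one (Ctnnb1, Fzd4 and Sfrp2) held 0 matches too. A match is a description of these letters and says nothing of binding.

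**Figure D1:**
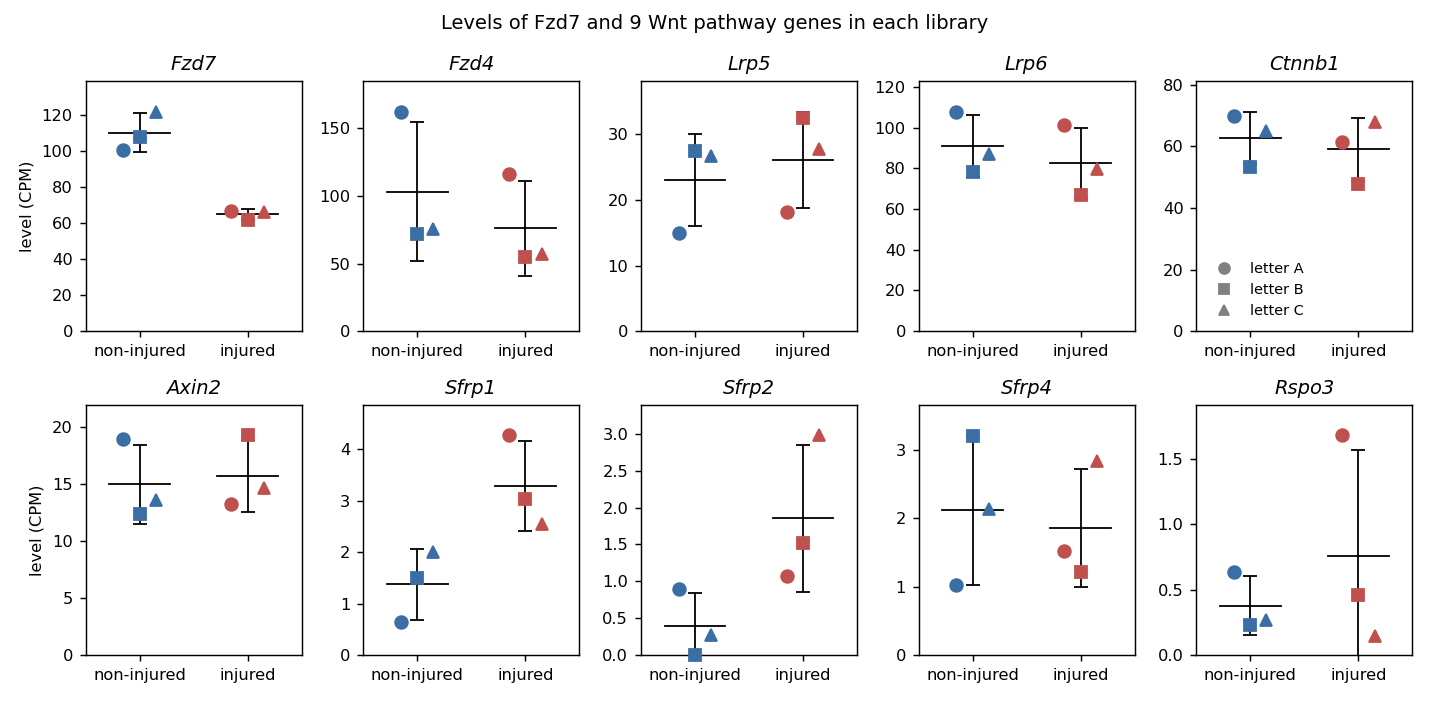
Levels (CPM, linear axes from 0) of the 10 genes in each library. Points are libraries, with a marker shape for each letter, horizontal lines are group means and bars are ± 1 SD (n = 3), cut at 0 for Rspo3 and Sfrp2. The injured Fzd7 points lie between 61.6 and 66.6 CPM, below the non-injured points at 101 to 122 CPM, whereas Fzd4, Lrp5 and Lrp6 spread within each group with letter A apart from B and C.

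Fzd4, a receptor best known for vascular Wnt and Norrin signalling, differed more between letters than between groups. It lies on chromosome 7, from 89404355 to 89413134 (mm10, plus strand). Its level was 116, 54.8 and 56.9 CPM in injured A, B and C, and 162, 71.9 and 75.6 CPM in non-injured A, B and C. The groups overlapped, and letter A was highest in both. The fitted log2 fold change between groups was -0.44 ± 0.32 (SE). Within the letters A, B and C the log2 ratio was -0.48, -0.39 and -0.41, so the injured library was the lower of each pair. With the letter as a block the standard error shrank to 0.11 around a log2 fold change of -0.43, and the adjusted p went from 0.561 to 0.0273 (edgeR). Both values belong to the comparison known when the list was drawn up, and are given as a description.

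The difference between letters is a measure that the choice of genes did not use, so it was tested: an F test on the letter terms of the blocked edgeR fit, adjusted over all 16095 genes. Each adjusted p in this paragraph belongs to that test of any difference among the letters. The differences of A from the mean of B and C, with their SE, give a size and carry no adjusted p of their own. Of the 8 members tested, 2 differed between letters, Fzd4 and Lrp5, and 538 of all genes (3.34%) did. Fzd4 stood 2.14-fold higher in letter A than in the mean of B and C (log2 1.10 ± 0.11 SE, adjusted p 6.04e-05). Lrp5 differed the other way, at 0.58 of the B and C level in letter A (log2 -0.79 ± 0.15 SE, adjusted p 0.0203). Lrp6 had a log2 difference of 0.43 ± 0.11 (SE) and an adjusted p of 0.0746, and Fzd7 one of -0.07 ± 0.12 (SE) with an adjusted p of 0.787. What the letters stand for is not explained by the labels. Among the other 96 Wnt genes tested, 2 differed between letters and are named after their values were seen: Dkk3, a Dickkopf-family protein, at 2.22-fold in letter A (adjusted p 0.0149), and the planar polarity cadherin Celsr2, at 0.33 (adjusted p 0.0051). Of the cell type markers, 4 passed this test: 2 of 11 satellite cell markers, 1 of 13 progenitor markers and 1 of 8 muscle fibre markers. They were the satellite cell markers Itga7 (1.48-fold in letter A, adjusted p 0.0319) and Sdc4 (0.60, adjusted p 0.00838), the progenitor marker Smoc2 (0.63, adjusted p 0.0243), and Myh2, the myosin of fast oxidative fibres (0.50, adjusted p 0.00165). Smoc2 and Myh2 are named after their values were seen. Of the 9 endothelial markers tested, 0 passed, and their log2 differences ran from -0.26 (Egfl7) to 0.70 (Emcn). With 3.34% of all genes passing, nothing is read from these marker counts, or from the absence of an endothelial one. The part of cell or fibre type content in the Fzd4 and Lrp5 differences was not tested.

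**Figure D2:**
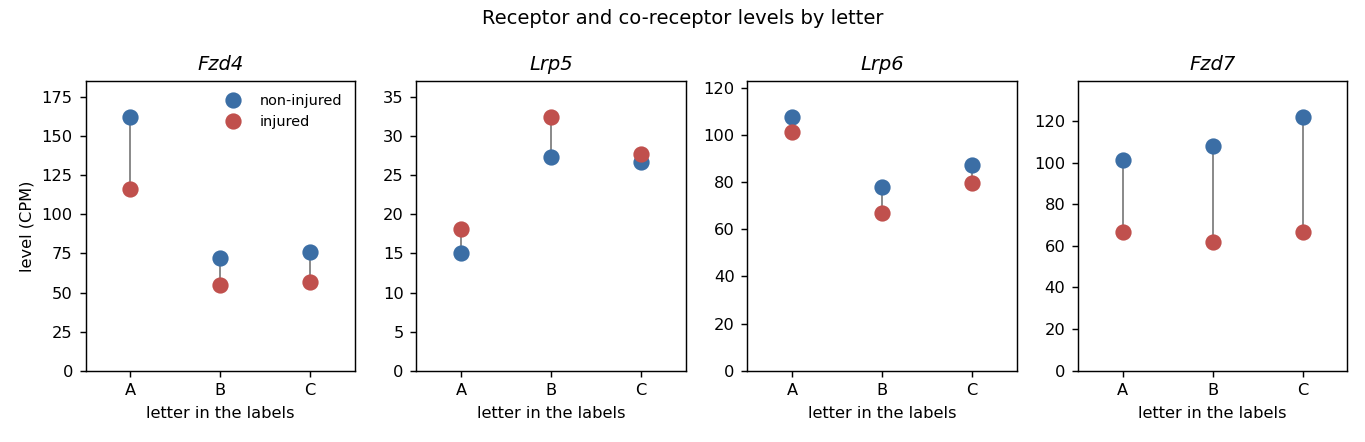
Levels (CPM, linear axes from 0) of Fzd4, Lrp5, Lrp6 and Fzd7 by the letter of the library, with a line joining the injured and the non-injured library of a letter. Fzd4 is highest and Lrp5 lowest in letter A in both groups, while the gap between groups in Fzd7 is present in all 3 letters.

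Lrp5 and Lrp6, the single-pass co-receptors that a Wnt ligand joins to a Frizzled, had overlapping groups. Lrp5 (chromosome 19, 3584828 to 3686564, minus strand) had levels of 18.1, 32.5 and 27.7 CPM in injured A, B and C and 15, 27.4 and 26.7 CPM in non-injured A, B and C. Its log2 fold change was 0.18 ± 0.25 (SE). Lrp6 (chromosome 6, 134446476 to 134566965, minus strand) had levels of 101, 67.1 and 79.6 CPM in injured and 108, 78 and 87.1 CPM in non-injured A, B and C, a log2 fold change of -0.14 ± 0.18 (SE). Both differences were smaller than their standard error. The Lrp6 value was lower in the injured library of each letter and the Lrp5 value higher, with log2 ratios from -0.22 to -0.09 and from 0.05 to 0.27.

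Beta-catenin and Axin2 mRNA, the transducer and its best known target, had overlapping levels in the groups. Ctnnb1 (chromosome 9, 120929216 to 120960507, plus strand) lay at 61.5, 48 and 68 CPM in injured A, B and C and at 70, 53.4 and 64.9 CPM in non-injured A, B and C. The log2 fold change was -0.08 ± 0.17 (SE). Beta-catenin is controlled mainly at the level of its protein, which was not measured here. Axin2 (chromosome 11, 108920349 to 108950783, plus strand) lay at 13.3, 19.3 and 14.6 CPM in injured and at 19, 12.4 and 13.6 CPM in non-injured A, B and C, a log2 fold change of 0.07 ± 0.22 (SE). Its highest injured library was B and its highest non-injured library was A, and the letter ratios were -0.52, 0.64 and 0.10 on the log2 scale. Genes annotated on the opposite strand overlap Ctnnb1 (among them Ulk4), Axin2, Sfrp2 and Rspo3, and since the strand setting of the counting is not given, reads of an antisense partner cannot be told apart from theirs. On the same strand, Mir7090 overlaps Ctnnb1 and Gm20276 overlaps Rspo3, where no strand setting would part the reads.

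The secreted modulators were present at few counts. Sfrp1 (chromosome 8, 23411502 to 23449632) had 28, 20 and 18 counts in injured A, B and C and 5, 13 and 15 in non-injured A, B and C. That is 4.27, 3.04 and 2.55 CPM against 0.64, 1.49 and 2 CPM, without overlap between groups, and a log2 fold change of 1.25 ± 0.48 (SE). The letter ratios of Sfrp1 ran from 2.75 (A) through 1.03 (B) to 0.35 (C), and over 13 alternatives its log2 fold change lay between 0.68 and 1.58 with 0 of them under an adjusted p of 0.05. Sfrp2 (chromosome 3, 83766321 to 83774316) had 7, 10 and 21 counts in injured and 7, 0 and 2 in non-injured A, B and C, or 1.07, 1.52 and 2.98 CPM against 0.89, 0 and 0.27 CPM, also without overlap. The Sfrp2 log2 value of 2.21 ± 0.91 (SE), from the fit without a count filter, rests on 38 counts against 9. Sfrp4 (chromosome 13, 19623104 to 19632994) had 10, 8 and 20 counts in injured and 8, 28 and 16 in non-injured A, B and C, and its groups overlapped (log2 fold change -0.19 ± 0.53 SE).

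Rspo3, on chromosome 10 from 29452416 to 29535867, was the member with the lowest level. Its estimated counts were 11, 3 and 1 in injured A, B and C and 4.69, 1.56 and 2 in non-injured A, B and C, with overlapping groups and the highest value of each group in letter A. The log2 fold change of Rspo3 in the fit without a count filter was 0.93 ± 1.13 (SE), smaller than its standard error. Sfrp2 and Rspo3 did not pass the filter on low counts, so 8 of the 10 members entered the test.

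Of the 8 tested, 0 were called higher and 1, Fzd7, was called lower (edgeR, adjusted p under 0.05), where 0.715% of all genes were called higher and 0.0311% lower. In the fit with the letter as a replicate block, 0 were called higher and 2 lower, Fzd7 and Fzd4, where 3.21% of all genes were called higher and 2.65% lower. Groups did not overlap in Sfrp1 (higher) and Fzd7 (lower), 1 of 8 each, where 11.7% of all genes had every injured library higher and 9.74% every injured library lower. Because the list was drawn up with this comparison known, nothing is read from these counts. The median log2 fold change was -0.11 over the 8 members and 0.00 over all genes tested. DESeq2 and limma-voom each called Fzd7 lower and no other member.

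Compared per exon length, Fzd7 was the most abundant of the 10 mRNAs in non-injured muscle. Its mean level there was 24.4 ± 2.36 CPM per kb of exon (SD, n = 3), followed by Fzd4 at 15.4 ± 7.62, Ctnnb1 at 12.1 ± 1.64, Lrp6 at 6.65 ± 1.12, Axin2 at 2.72 ± 0.64 and Lrp5 at 2.36 ± 0.71 CPM per kb. Sfrp4, Sfrp1, Sfrp2 and Rspo3 had means from 0.12 to 0.51 CPM per kb. Neighbours in this order whose libraries overlapped were Fzd7 with Fzd4 (through letter A), Fzd4 with Ctnnb1, Axin2 with Lrp5, and each of the last 4 with the next. In injured muscle Fzd7 was at 14.3 ± 0.63 CPM per kb, beside 11.4 ± 1.97 for Ctnnb1 and 11.3 ± 5.20 for Fzd4.

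Fzd7 and Fzd4 together carried most of the Frizzled mRNA. Of the summed level of all 10 Fzd genes per exon length, they made up 83.5%, 74.6% and 76.7% in non-injured A, B and C and 76.7%, 63.7% and 67.9% in injured A, B and C. Fzd9 came next with 14.4% ± 3.12 in non-injured and 18.4% ± 2.98 in injured libraries (SD, n = 3 each). The share of Fzd7 alone was 40%, 51.5% and 54.1% in non-injured and 35.2%, 39.8% and 43.1% in injured A, B and C, and these shares overlapped between groups, since a high Fzd4 level in letter A lowers the Fzd7 share there. The summed level of the 10 Fzd genes was 55.7, 46.3 and 49.8 CPM per kb in non-injured and 41.8, 34.2 and 34.1 CPM per kb in injured A, B and C. That sum was lower in every injured library, but it contains Fzd7, which was chosen by its lower injured value. Its gap is therefore a description and is not read as a fall of the other Fzd genes. The close relatives Fzd1 and Fzd2 had 2.09 ± 0.23 and 1.21 ± 0.42 CPM in non-injured and 3.21 ± 0.93 and 2.16 ± 0.74 CPM in injured libraries, with log2 fold changes of 0.62 ± 0.40 and 0.84 ± 0.50 (SE) that did not pass the test. Fzd7 counts were whole numbers in all 6 libraries.

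**Figure D3:**
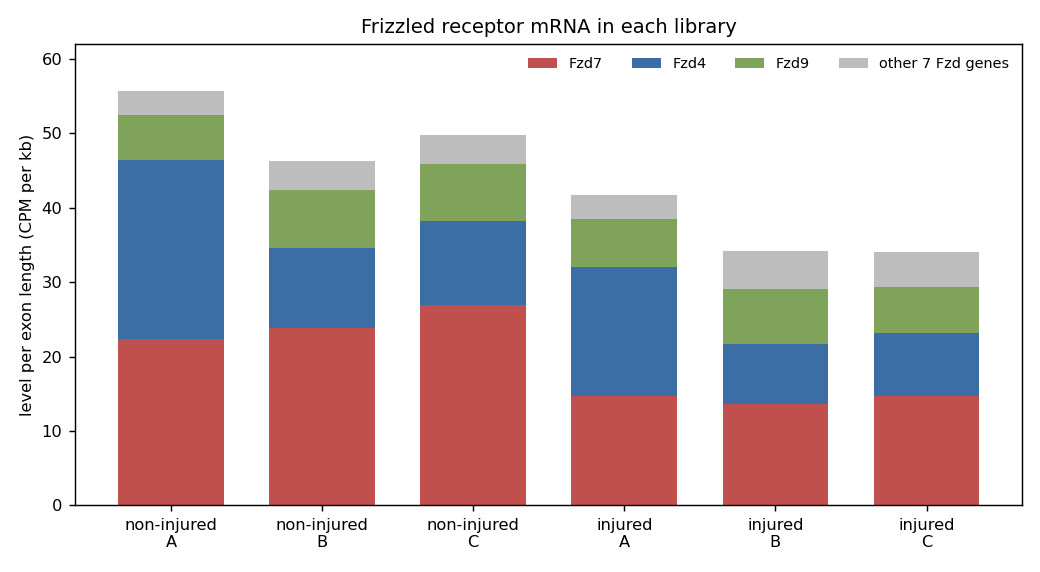
Summed level of the 10 Frizzled mRNAs per exon length (CPM per kb, linear axis from 0) in each library, split into Fzd7, Fzd4, Fzd9 and the other 7. Injured libraries reach 34.1 to 41.8 and non-injured ones 46.3 to 55.7 CPM per kb, and the Fzd4 segment is largest in letter A of both groups. The totals contain Fzd7, which was chosen by its lower injured value.

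The rest of the pathway was read from lists of 126 other genes grouped by role, of which 107 had a row and 96 passed the count filter. By edgeR 0 of the 96 were higher and 0 lower (adjusted p under 0.05), where 0.715% and 0.0311% of all genes were. The limma-voom fit called 0 as well, beside 53 higher and 6 lower of all genes. At such shares nothing is read from an absence of calls, here or in the lists that follow. Of the 96, 6 were higher and 4 lower at an unadjusted p under 0.05, beside 1488 and 983 of all 16095 genes. Their median log2 fold change was 0.06. Groups did not overlap in 5 genes with higher and 15 with lower injured values, beside 11.7% and 9.74% of all genes. DESeq2, and edgeR with the letter as a replicate block, each called 1 higher, Vangl2, and 1 lower, Camk2a. Of all genes, DESeq2 called 252 higher and 75 lower, and the blocked fit 516 and 427.

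Ligands gave no call. Of 20 listed, 7 were tested, with a median log2 fold change of 0.01. The ligands with the most counts were Wnt4 (11.4 ± 1.92 CPM in non-injured and 13.7 ± 1.91 in injured libraries), Wnt2b (11.9 ± 0.76 and 10.1 ± 1.76) and Wnt11 (9.01 ± 0.76 and 7.35 ± 1.30; SD, n = 3 each), and their log2 fold changes were 0.27 ± 0.21, -0.23 ± 0.21 and -0.29 ± 0.23 (SE). Wnt7a, the ligand tied to Fzd7 in muscle, had no row and was not analysed here. Among 7 genes of ligand secretion and release, the carrier Wls, which brings Wnt proteins to the cell surface, had 27.9, 16.9 and 24.8 CPM in injured and 29.5, 31.3 and 40.2 CPM in non-injured A, B and C. These Wls groups did not overlap, the log2 fold change was -0.53 ± 0.20 (SE), and the adjusted p was 0.225, or 0.053 with the letter as a block (edgeR). The glypicans Gpc1 and Gpc4, cell-surface proteoglycans that bind Wnt proteins, had log2 fold changes of -0.11 ± 0.17 and -0.07 ± 0.16 (SE).

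The 13 other receptors and co-receptors tested gave no call and a median log2 fold change of 0.17, and the 4 other secreted inhibitors gave none either. Dkk3, Frzb and Dkk2, the inhibitors with the most counts, had log2 fold changes of -0.25 ± 0.38, 0.07 ± 0.29 and 0.69 ± 0.37 (SE). In the R-spondin group, the receptor Lgr4 and the receptor-removing ligase Znrf3 had log2 fold changes of -0.17 ± 0.16 and 0.05 ± 0.16 (SE), and Lgr6 one of 0.59 ± 0.55. The 4 tested in this group ran from -0.17 to 1.65 with a median of 0.32, and 0 passed the test.

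Cytoplasmic and nuclear components gave no call by edgeR, with log2 fold changes from -0.27 to 0.99 and from -0.47 to 0.54. The 19 cytoplasmic genes beside Ctnnb1 and Axin2 had a median log2 fold change of 0.01, with Csnk1a1, a kinase that marks beta-catenin for destruction, at -0.21 ± 0.17, Tnks2, a tankyrase that destabilises axin, at -0.19 ± 0.13 and Dvl1, the adaptor that Frizzleds recruit, at 0.08 ± 0.15 (SE). The 15 nuclear factors had a median of 0.16, with the co-repressors Ctbp1 and Tle1 at 0.16 ± 0.14 and -0.26 ± 0.14 and the co-activator Bcl9l at 0.16 ± 0.14 (SE). Of 14 commonly used target genes 8 were tested, 6 of them with a positive and 2 with a negative sign, and 0 passed. Their log2 fold changes ran from -0.47 to 1.65 with a median of 0.19. Znrf3 and Axin2 were near 0 and Myc was at 0.74 ± 0.37 (SE), at a mean of 41.3 counts per library.

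The planar polarity and calcium branch held both other genes called in the blocked fit, of 24 tested. That fit called 3.21% of all genes higher and 2.65% lower, so nothing is read from this count. Vangl2, the polarity protein tied to Fzd7 in satellite cells, had 14, 39 and 17 counts in injured and 7, 3 and 6 in non-injured A, B and C. These correspond to 2.13, 5.92 and 2.41 CPM against 0.89, 0.34 and 0.80 CPM, without overlap. The fitted log2 difference was 2.35 ± 0.58 (SE), with an adjusted p of 0.0802 by edgeR. The adjusted p of Vangl2 was 0.0378 with the letter as a block and 0.0232 by DESeq2, and over all its alternatives it ranged from 0.0232 to 0.317. Camk2a, a calcium-activated kinase, had 236, 217 and 225 CPM in injured and 305, 329 and 325 CPM in non-injured A, B and C, a log2 difference of -0.50 ± 0.13 (SE) with an adjusted p of 0.0912 by edgeR. With the letter as a block the adjusted p of Camk2a was 0.0113, and over its alternatives it ranged from 0.0113 to 0.299. Camk2g and the calcineurin subunit Ppp3ca had log2 fold changes of -0.26 ± 0.13 and 0.04 ± 0.15 (SE).

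**Figure D4:**
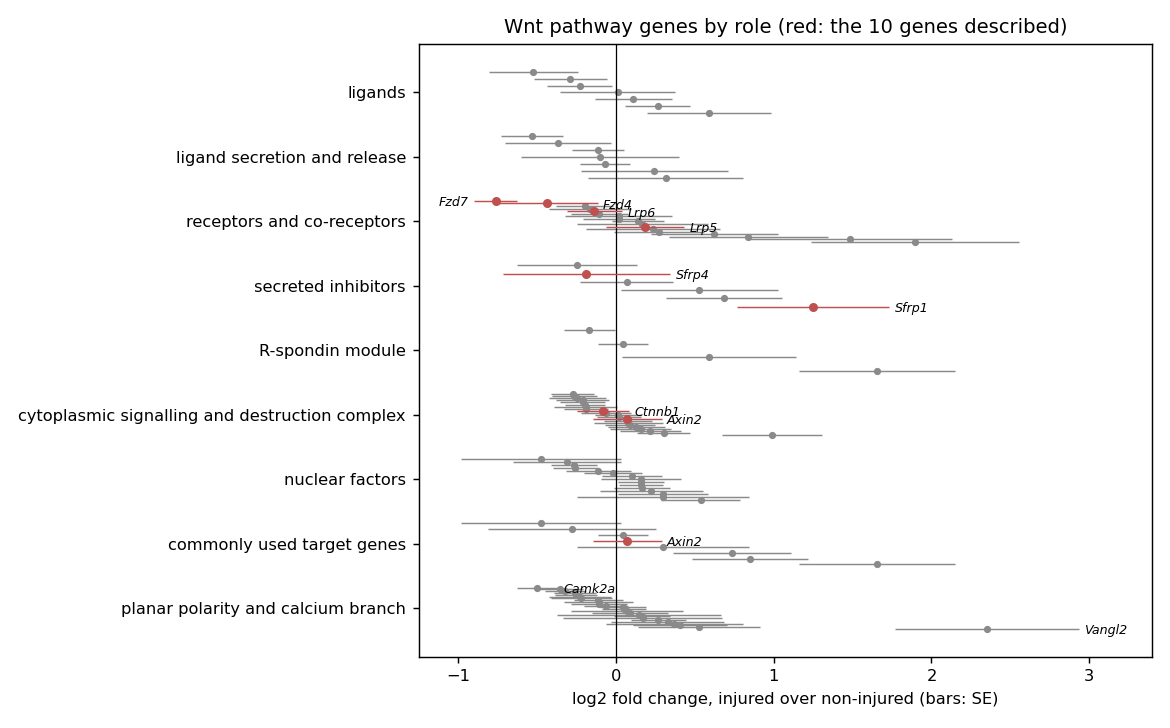
Log2 fold change, injured over non-injured, of each tested Wnt gene by role, with bars of ± 1 SE. The 8 tested members are red, and genes with 2 roles appear in both rows. Fzd7 at -0.76 is the lowest value on the plot and Vangl2 at 2.35, which rests on few counts, the highest.

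Whether these libraries hold RNA of whole muscle or of fibre nuclei is not settled by the labels. In whole muscle, fewer cells of a type and less mRNA per cell cannot be told apart. The markers of cells that could carry Fzd7 are therefore given beside it. Of 12 satellite cell markers 11 had a row, with a summed level of 243 to 258 CPM in injured and 199 to 226 CPM in non-injured libraries, 0 of 11 past the test (1, Itga7, with the block) and a median log2 fold change of 0.11. Most of that sum came from Itga7, which muscle fibres also express (log2 fold change 0.42 ± 0.20 SE), and from Sdc4 (0.11 ± 0.23). The defining marker Pax7 had 0.92, 4.71 and 4.12 CPM in injured and 2.42, 2.52 and 4.54 CPM in non-injured A, B and C. Muscle fibre markers summed to 165358 to 172783 CPM in injured and 180217 to 188358 CPM in non-injured libraries, without overlap, with 0 of 8 past the test and a median log2 fold change of -0.06, led by Ttn (-0.10 ± 0.12) and Myh4 (-0.31 ± 0.15).

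Markers of other cells moved with the groups in places. Macrophage markers summed to 78 to 151 CPM in injured against 28.7 to 37.2 CPM in non-injured libraries, 3 of 7 tested rose (7 with the letter as a block), and Lyz2 and Csf1r had log2 fold changes of 1.93 ± 0.26 and 1.09 ± 0.26 (SE). Markers of fibro-adipogenic progenitors, the connective tissue cells of muscle, summed to 926 to 1372 CPM against 772 to 799 CPM, with 3 of 13 past the test, Col1a1, Col1a2 and Col3a1. The gap in this sum lay in those 3 collagen genes. Their means were 207, 119 and 253 CPM in injured and 35.1, 32.7 and 56.7 CPM in non-injured libraries. Of the 13 progenitor markers, 11 had a positive and 2 a negative sign, with a median log2 fold change of 0.42. Gsn and Col3a1 had log2 fold changes of -0.31 ± 0.14 and 2.16 ± 0.27 (SE). Adipocyte markers were at 20.2 to 27.3 CPM against 37.6 to 59.8 CPM, with 0 of 6 past the test (3 lower with the block), led by Cfd and Cidec (-1.01 ± 0.30 and -1.06 ± 0.32). For tenocytes 4 of 7 markers had a row and summed to 50.7 to 59.5 CPM against 35.3 to 44.8 CPM, with 0 past the test (2 higher with the block), led by Thbs4 and Fmod (0.81 ± 0.18 and -0.22 ± 0.22). Endothelial markers summed to 150 to 160 CPM against 130 to 146 CPM, led by Ptprb and Cdh5 (0.35 ± 0.16 and 0.08 ± 0.16). Sums of pericyte and smooth muscle markers (323 to 360 against 347 to 369 CPM, led by Abcc9 and Rgs5) and of Schwann cell markers (21 to 23.8 against 16 to 23.6 CPM, led by Pmp22 and Mbp) overlapped. Most of the pericyte and smooth muscle sum came from Abcc9, with means of 193 CPM in injured and 234 CPM in non-injured libraries. Abcc9 and Rgs5 had log2 fold changes of -0.27 ± 0.13 and 0.11 ± 0.17 (SE). Of the 8 markers in that list, 6 had a positive and 2 a negative sign, with a median log2 fold change of 0.14. No marker with a row was at 0 in any library, and Calcr, Tnmd, Mkx, Kera and S100b had no row. The part of any of these in the values of Fzd7, Sfrp1 or Sfrp2 was not tested.

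The 5 genes most like Fzd7 were found by the root mean square difference between log2 CPM values centred on each gene's mean, over the 6 libraries and 8171 other genes that were tested, had a mean of at least 50 counts and a standard symbol (unnamed gene models were left out). They were Srr, which makes D-serine (0.08), Taf1d, a factor of RNA polymerase I transcription (0.09), Cdkal1, a tRNA-modifying enzyme (0.10), Gpr183, a receptor for oxysterols (0.10), and Parm1 (0.10), against a median of 0.41 over the compared genes. Taf1d had 218, 190 and 236 CPM in injured and 300, 333 and 409 CPM in non-injured A, B and C. The 7 other members that were tested, measured the same way whatever their counts, had distances from 0.38 (Ctnnb1) to 1.04 (Sfrp1). Likeness in this measure follows the gap between groups by which Fzd7 was chosen.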

How the data were processed

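RNA from 6 quadriceps libraries was sequenced. The authors deposited estimated counts per gene in 1 table. Whole numbers make up 72.2% to 74.5% of a library's values, and rows reach at least 10 in some library. Per the submitters' processing notes, STAR 2.7.8a, Partek, DESeq2 and the builds mm10 and hg19 were named, with no role or order. Which program counted reads, with which strand setting and annotation, was not given in the sources used here. Start and end of 96.6% of rows equal those of the same-named GENCODE M21 gene on mm10 (an end 1 base beyond counted as equal), and positions and exon lengths are taken from that annotation. The table's title names myonuclear RNA, while the extraction protocol mentions no isolation of nuclei.

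Counts were rounded, filtered with filterByExpr (16095 genes kept, 3920 dropped), scaled by TMM and tested with edgeR 4.0.16 (quasi-likelihood, two-sided, Benjamini-Hochberg over all genes, threshold 0.05) in R 4.3.3. The SE of a fold change was its absolute log2 value divided by √F. CPM uses the same scaling. DESeq2 1.42.0 and limma-voom (limma 3.58.1) were alternatives, and the edgeR procedure was tested on simulated data. All columns were assigned to samples. Nothing says that the libraries are separate animals, and the p-values then cover only the spread among them, perhaps a technical one. Counts of a few reads per library limit the precision of Sfrp1, Sfrp2, Sfrp4, Rspo3 and Vangl2.

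The members and the lists were chosen with earlier results of these data known. Named genes were the members, other Wnt genes called with or without the block, the 3 with the most counts per Wnt list and 2 per marker list, and the 5 most like Fzd7. The blocked fit treated libraries of a letter as pairs. Over 16095 genes, deviations from group means correlated at 0.316 (A), 0.208 (B) and 0.113 (C) between a letter's injured and non-injured library. Libraries of unlike letters were not compared this way, and the labels do not explain the letters, so the pairing is an assumption.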

Additional observations from a re-analysis of the deposited data

How the results depend on the processing

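With the letter as a replicate block, members called lower went from 1 to 2 (Fzd4 was added), and the other Wnt genes called went from 0 higher and 0 lower to 1 (Vangl2) and 1 (Camk2a). DESeq2 and the fit without both letter A libraries also gave 1 higher and 1 lower, the same genes. Over all genes, calls went from 115 higher and 5 lower to 516 and 427 with the block. Leaving out 1 library in turn gave 0 to 1 members called lower. Fzd7 lost its call without either library of letter B or either of letter C. Of all genes, 2 were called lower without either library of letter B and 0 without either of letter C. Without the injured or the non-injured library of letter A, 23 and 25 were. No member was called higher under any of the 14 alternatives run. The block changed no other member's call. Members differing between letters numbered 2 to 3 over 4 alternatives, and 3 only with a mean of at least 50 counts. Among uncalled members, the sign of the log2 fold change was not kept by every alternative for Axin2 (11 of 14), Ctnnb1 (13), Fzd4 (13), Lrp5 (12) and Sfrp4 (11 of 13), and the cause was not tested. No scaling moved the median of all genes by more than 0.05 (upper quartile). Depth limits Sfrp2 and Rspo3, at means of 7.83 and 3.87 counts per library.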
